A study of Mus musculus with 15 samples.

Results

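The genes described here encode the enzymes that build cholesterol and the proteins that govern the transcription factor SREBP2, followed through the livers of mice on 3 diets. The list holds 29 genes, taken in pathway order, and its members were found by their gene symbol, older symbols included, in the annotation of the array. Of the 29, 26 had at least 1 probe set with that symbol, 58 probe sets in all, and 24 genes with 44 probe sets passed the filter on low signals, out of 10521 genes tested on the whole array. Acat2, the cytosolic thiolase that opens the pathway, and Soat1 and Soat2, which esterify cholesterol for storage, were not analysed here. Sqle and Npc1l1 had a probe set but did not pass the filter, and their signals are given at their place in the pathway. Male C57BL/6J mice, 8 weeks old at the start, were fed for 12 weeks. The CL+CX mice ate the CL diet with β-cryptoxanthin, a carotenoid of citrus fruit. The CL mice ate the CL diet, in which cholesterol made up 1.25%, the bile salt sodium cholate 0.5% and cocoa butter 60%, with the feed CRF-1 as the other 38.23%, so that both groups took in cholesterol and a bile salt. The NC mice ate standard chow. Each group held 5 livers, each on its own array. The dose of β-cryptoxanthin is 0.003% of the diet in the treatment text of the labels and 0.005% in the sample titles, and the CL+CX mice were taken as 1 group.

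Cells make cholesterol from acetyl-CoA through mevalonate, isoprenoid diphosphates, squalene and lanosterol. SREBP2 travels bound to SCAP, which the INSIG proteins hold in the endoplasmic reticulum while sterols are plentiful, and when sterols run low SCAP escorts it to the Golgi, where it is cut and released to switch on the genes of this pathway. The liver is a main site of cholesterol synthesis, and cholesterol in the diet is a known brake on these genes there.

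Signals are given on the log2 scale after scaling every array to the same 75th percentile, on which the medians of the arrays lay between 3.50 and 3.76. The excess of the 3′ over the 5′ end of the β-actin control, which moves with the state of the RNA, came to 1.07 ± 0.101 in CL+CX livers, 0.82 ± 0.0968 in CL livers and 0.94 ± 0.0859 in NC livers (log2, SD, n = 5). All CL+CX livers (0.949 to 1.17) lay above all CL livers (0.699 to 0.945). With this difference as a covariate, diet and RNA state therefore cannot be told apart between CL+CX and CL. CL replicate 2 was the array least like its group, with a mean r of 0.941 to the other CL arrays, which had 0.957 to 0.962. None of the 7 hepatocyte markers measured lay below the array median on all arrays of a group. They had a summed log2 level of 15.6 to 15.9 in CL+CX, 15.5 to 16.2 in CL and 16.01 to 16.3 in NC livers, and none of them passed the test in any comparison. All 7 had negative differences from NC, at -0.40 to -0.23 in CL (median -0.31) and -0.37 to -0.23 in CL+CX (median -0.28). Over all genes these medians were -0.08 and -0.04. The 12 macrophage and Kupffer cell markers had a summed log2 level of 11.4 to 12.5 in CL+CX, 12.9 to 13.3 in CL and 10.3 to 11.5 in NC livers. All 12 were higher in CL than in NC, 3 were higher in CL+CX than in NC and 7 were lower in CL+CX than in CL. Of 7 sinusoidal endothelial markers, 2 were lower in CL+CX than in NC and 2 than in CL. Of 6 enterocyte markers listed, 5 had a probe set, and 2 of these lay below the array median on all arrays. The 2 tested, Fabp2 and Apoa4, were higher in CL+CX and in CL than in NC. Both were bright on chow too, with a mean of 10.0 each in NC livers, so they are not read here as a sign of enterocytes. Of the stellate cell markers 1 of 7, Timp1, was higher in CL than in NC, as was Cd3g, the 1 lymphocyte marker tested, and Sox9, the 1 bile duct marker tested, was lower in CL+CX than in CL. Cd3g passed the filter on low signals only through CL livers, where it was high. Timp1 passed it only through CL+CX and CL livers, and Sox9 only through CL and NC livers. The values of Timp1, Cd3g and Sox9 are therefore a description and support no call. The markers above moved with the diets, and their part in the results below was not tested. In bulk liver, fewer cells of a type and less RNA per cell cannot be told apart.

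Cholesterol synthesis genes were broadly lower on the CL diet. Of the 24 members tested, 15 were lower in CL than in NC livers and none was higher, at an adjusted p under 0.05 in limma. Over all genes, 6.76% were called lower and 7.2% higher in the same comparison. The median difference of the members was -0.63 on the log2 scale, against -0.08 over all genes, and 21 of 24 differences were negative, as were 60.1% over all genes. At an unadjusted p under 0.05, 18 members were lower and 0 higher, where 16.6% of all genes were lower and 12.2% higher. The number of members called lower in CL depended on the setting, with 8 under a test after the study's methods, 7 with no filter on low signals, 7 with the β-actin difference as a covariate and 6 on signals not scaled between arrays. With β-cryptoxanthin added, 8 members were lower than in NC livers, where 4.85% of all genes were, and 1, Aacs, was higher, where 5.11% were. With no filter, on unscaled signals or with the covariate, 5 members were lower. The median was then -0.48, against -0.04 over all genes. Between CL+CX and CL livers, 2 members, Fdft1 and Aacs, were higher and none was lower, while 1.48% of all genes were called higher and 1.78% lower. No member was called with no filter or with the covariate. At an unadjusted p under 0.05 there were 4 members, 3 of them higher in CL+CX, a share close to the 18.7% of all genes. CL livers enter 2 of these comparisons, as do NC and CL+CX livers, so the 3 counts share samples.

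**Figure D1:**
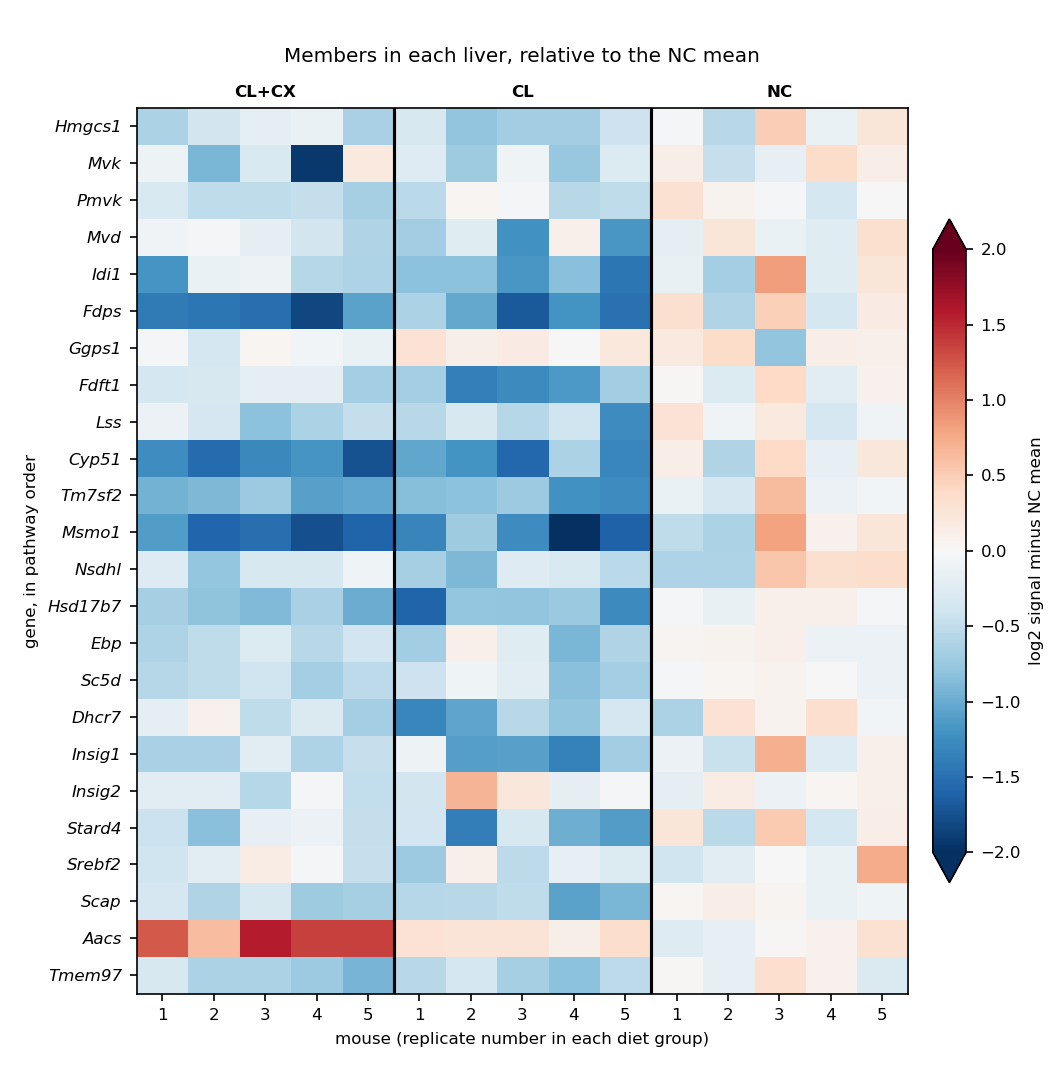
Log2 signal minus the NC mean for the 24 members tested (rows, in pathway order) in each liver (columns, replicates 1 to 5 of CL+CX, CL and NC), blue where lower and red where higher. In every CL+CX and CL liver at least 18 of the 24 members lay below the NC mean, against 5 to 16 in single NC livers. The NC mean comes from these same NC livers, which lie around it by construction. Over all genes, 60.1% of group differences from NC were negative in CL and 55.1% in CL+CX. Aacs stands out above the NC mean in all 5 CL+CX livers.

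To show the regulatory sequence that these genes carry, RefSeq windows of 250 bases before to 50 bases after the start (GRCm38.p6) were searched on both strands. Windows were found for 24 of the 29 members, 30 windows in all, the others being Fdps, Fdft1, Sqle, Stard4 and Soat2. A sterol regulatory element, the site that SREBP2 binds, was searched as TCACNCCAC. It was found in 1 member window, that of Hmgcs1, and in 1.24% of all 32851 windows. Only this 1 pattern was searched, in 300 bases per window, so a window without a match is not shown to lack such an element. The NF-Y box CCAAT, bound by a factor that works with SREBP2 on sterol genes, was found in 21 of the 30 member windows (70%), against 37.4% of all windows. Among members lower in CL than in NC it was in 11 of 15 windows, and among the other members tested in 8 of 12. The Sp1 box GGGCGG was found in 14 of 15 windows of the members lower in CL, in 7 of 12 windows of the others and in 35.7% of all windows. The E-box CACGTG was in 6 of 15, 0 of 12 and 7.15%. Windows of a gene can overlap, and those of Scap share 1 E-box, so that by gene it was in 5 of 12 members lower in CL and 0 of 9 others. By gene the Sp1 box was in 12 of 12 and 6 of 9, and the NF-Y box in 11 of 12 and 8 of 9. The members were split by their calls in these same data, and the difference in motifs was not tested. Matches of different motifs may share bases and each was counted on its own, and a match is a description of the sequence, not of binding. The windows below are those of Hmgcs1, for its TCACNCCAC match, and of the 5 members with the largest differences between CL and NC that had a window. Capitals mark CCAAT, read as ATTGG on the other strand, and in Hmgcs1 also TCACCCCAC, which starts 137 bases before the start. Each is written 5′ to 3′ on the strand of its gene.
Hmgcs1: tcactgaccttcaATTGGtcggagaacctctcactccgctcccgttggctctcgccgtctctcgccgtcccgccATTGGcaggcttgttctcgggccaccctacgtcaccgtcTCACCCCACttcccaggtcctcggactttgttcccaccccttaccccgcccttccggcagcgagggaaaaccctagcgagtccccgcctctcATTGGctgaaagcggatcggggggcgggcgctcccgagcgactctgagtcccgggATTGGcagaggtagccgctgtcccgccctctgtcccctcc
Msmo1: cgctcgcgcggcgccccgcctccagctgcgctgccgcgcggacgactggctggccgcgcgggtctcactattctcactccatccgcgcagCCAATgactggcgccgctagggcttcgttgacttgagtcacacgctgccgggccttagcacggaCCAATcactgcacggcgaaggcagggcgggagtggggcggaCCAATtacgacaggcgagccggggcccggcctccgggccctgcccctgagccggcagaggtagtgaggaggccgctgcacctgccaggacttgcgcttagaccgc
Cyp51: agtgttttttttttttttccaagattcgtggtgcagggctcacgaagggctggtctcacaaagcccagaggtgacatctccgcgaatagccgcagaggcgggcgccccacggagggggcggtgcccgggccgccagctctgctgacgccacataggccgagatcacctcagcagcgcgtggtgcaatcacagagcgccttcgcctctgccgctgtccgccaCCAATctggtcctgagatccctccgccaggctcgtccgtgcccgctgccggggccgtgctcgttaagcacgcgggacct
Hsd17b7: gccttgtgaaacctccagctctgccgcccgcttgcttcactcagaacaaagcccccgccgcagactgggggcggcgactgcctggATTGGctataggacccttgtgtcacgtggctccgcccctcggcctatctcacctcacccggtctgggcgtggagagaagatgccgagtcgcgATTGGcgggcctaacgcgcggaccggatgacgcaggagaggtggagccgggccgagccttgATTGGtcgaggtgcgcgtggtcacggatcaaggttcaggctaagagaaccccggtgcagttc
Idi1: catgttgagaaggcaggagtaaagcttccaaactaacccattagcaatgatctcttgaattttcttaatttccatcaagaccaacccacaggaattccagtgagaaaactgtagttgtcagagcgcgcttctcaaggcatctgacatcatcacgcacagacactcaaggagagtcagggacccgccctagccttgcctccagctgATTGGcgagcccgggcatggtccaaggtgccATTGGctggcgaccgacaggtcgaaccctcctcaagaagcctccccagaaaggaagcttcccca
Tm7sf2: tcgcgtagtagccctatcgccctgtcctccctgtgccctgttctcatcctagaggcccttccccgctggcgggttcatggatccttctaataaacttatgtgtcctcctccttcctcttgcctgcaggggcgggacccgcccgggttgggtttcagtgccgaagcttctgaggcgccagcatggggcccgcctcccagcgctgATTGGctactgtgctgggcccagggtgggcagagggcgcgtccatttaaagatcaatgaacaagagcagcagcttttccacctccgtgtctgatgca
The Hmgcs1 window (chr13:119690101-119690400, plus strand) held 4 CCAAT boxes, that of Msmo1 (chr8:64733529-64733828, minus strand) 3, that of Cyp51 (chr5:4104648-4104947, minus strand) 1, that of Hsd17b7 (chr1:169969156-169969455, minus strand) 3, that of Idi1 (chr13:8885356-8885655, plus strand) 2 and that of Tm7sf2 (chr19:6067801-6068100, minus strand) 1.

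Of the 4 mevalonate genes tested, Hmgcs1 alone passed the test between CL and NC. Hmgcs1, the synthase that makes HMG-CoA, averaged 9.11 ± 0.242 in CL+CX, 8.92 ± 0.203 in CL and 9.5 ± 0.397 in NC livers (log2 signal, SD, n = 5). It was 1.5-fold lower in CL than in NC (log2 -0.59, standard error 0.18, limma adjusted p = 0.0454), with overlapping groups. This call was lost without any 1 of 12 of the 15 mice (adjusted p = 0.0501 to 0.113), and kept without CL+CX replicate 4, CL replicate 1 or NC replicate 2. Mevalonate kinase (Mvk) differed by -0.41 (adjusted p = 0.428), phosphomevalonate kinase (Pmvk) by -0.32 (0.193) and the decarboxylase Mvd by -0.64 (0.0795). In CL+CX against NC the same 4 genes lay between -0.61 for Mvk and -0.25 for Mvd and none passed, with Pmvk closest at -0.49 (adjusted p = 0.0515). Mvk varied most among CL+CX livers, with 3.10 in replicate 4 and 5.22 in replicate 5.

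Of the genes that make isoprenoids on the way to sterols, Idi1 and Fdps were lower in CL livers, and Ggps1, which leads away from sterols, did not pass the test. Idi1 makes dimethylallyl diphosphate, the starter unit of isoprenoids. It measured 5.08, 6.12, 6.15, 5.67 and 5.63 in CL+CX livers, 5.43, 5.42, 5.09, 5.42 and 4.81 in CL livers and 6.10, 5.56, 7.09, 6.00 and 6.49 in NC livers, in the order of replicates 1 to 5 that is kept throughout. All 5 CL livers lay below every NC liver, while CL+CX livers reached into both ranges. The fall in CL was 2.02-fold (log2 -1.02, standard error 0.26, adjusted p = 0.0196), and CL+CX differed from NC by -0.52 (adjusted p = 0.217). With the β-actin difference as a covariate, the CL call was lost (-0.78, adjusted p = 0.123).

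Fdps, farnesyl diphosphate synthase, measured 5.06, 5.04, 4.98, 4.67 and 5.41 in CL+CX, 5.84, 5.45, 4.80, 5.29 and 4.99 in CL and 6.81, 5.87, 6.96, 6.12 and 6.64 in NC livers. Every CL+CX and every CL liver lay below every NC liver, and the lowest NC value, in replicate 2, was only just above the highest CL value, in replicate 1. It was 2.73-fold lower in CL+CX than in NC (log2 -1.45, standard error 0.23, adjusted p = 0.0018) and 2.31-fold lower in CL than in NC (-1.21, standard error 0.23, adjusted p = 0.00346). Ggps1, which lengthens farnesyl diphosphate for protein prenylation, averaged 4.82 ± 0.152 in CL+CX, 5.08 ± 0.106 in CL and 4.92 ± 0.452 in NC. Its difference between CL and NC was 0.16 (95% interval -0.21 to 0.53, adjusted p = 0.597), and its sign changed in 2 of the 25 other settings that tested it.

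Squalene synthase (Fdft1), which commits isoprenoids to sterols, was the one enzyme of the sterol chain called between CL+CX and CL. It measured 8.24, 8.28, 8.41, 8.43 and 7.92 in CL+CX, 7.92, 7.23, 7.33, 7.45 and 7.91 in CL and 8.63, 8.32, 9.0, 8.37 and 8.69 in NC livers. All CL livers lay below all NC livers, and CL+CX livers 1 to 4 were level with the lower NC livers, while replicate 5 sat just above the highest CL values. It was 1.61-fold higher in CL+CX than in CL (log2 0.69, standard error 0.17, adjusted p = 0.041) and 2.05-fold lower in CL than in NC (-1.03, standard error 0.17, adjusted p = 0.00131). In CL+CX against NC it differed by -0.34 (adjusted p = 0.212). A dimmer Fdft1 probe set gave 0.43 between CL+CX and CL (adjusted p = 0.208). The call between CL+CX and CL was lost in 7 of 11 alternatives, among them the replicate block (adjusted p = 0.0728) and the β-actin covariate (0.40, adjusted p = 0.918), and without any 1 of CL+CX replicates 1 to 4, CL replicates 2 to 4 or NC replicates 1 and 5 (adjusted p = 0.0534 to 0.112).

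Squalene epoxidase (Sqle) did not pass the filter. Its signals were 3.12, 1.91, 3.12, 2.78 and 1.96 in CL+CX, 3.55, 1.42, 2.89, 1.88 and 2.95 in CL and 3.76, 3.03, 4.79, 4.72 and 4.92 in NC livers, above the array median in 0, 1 and 4 livers. It rose above the median mainly on chow, and it was not tested. Lanosterol synthase (Lss), which closes the sterol rings, averaged 5.37 ± 0.269 in CL+CX, 5.23 ± 0.369 in CL and 5.85 ± 0.249 in NC. It was 1.54-fold lower in CL than in NC (log2 -0.62, standard error 0.18, adjusted p = 0.039), a call lost without any 1 of CL replicates 1, 3 and 5 or NC replicates 1, 2, 3 and 5 (adjusted p = 0.0618 to 0.0966). Against NC, CL+CX differed by -0.48 (adjusted p = 0.11).

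Most steps from lanosterol to cholesterol were lower on the CL diet. All 8 genes tested had negative differences in CL against NC, with a median of -0.89, and 6 passed the test. In CL+CX against NC the median was -0.66 and 5 passed. Cyp51, which removes the first methyl group of lanosterol, measured 4.75, 4.44, 4.70, 4.81 and 4.25 in CL+CX, 4.95, 4.79, 4.41, 5.36 and 4.68 in CL and 6.13, 5.38, 6.39, 5.82 and 6.22 in NC livers. No CL+CX or CL liver reached the NC range, although CL replicate 4 came close to NC replicate 2. Cyp51 was 2.63-fold lower in CL+CX than in NC (log2 -1.40, standard error 0.20, adjusted p = 0.00107) and 2.22-fold lower in CL than in NC (-1.15, standard error 0.20, adjusted p = 0.0021).

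Tm7sf2, the sterol reductase that follows Cyp51, measured 7.80, 7.84, 8.02, 7.66 and 7.71 in CL+CX, 7.89, 7.92, 8.02, 7.54 and 7.49 in CL and 8.61, 8.41, 9.38, 8.63 and 8.68 in NC livers. CL+CX and CL livers overlapped and neither group touched the NC livers. It was 1.91-fold lower in CL+CX (log2 -0.94, standard error 0.17, adjusted p = 0.00383) and 1.96-fold lower in CL (-0.97, standard error 0.17, adjusted p = 0.00181) than in NC.

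Msmo1, the oxygenase that starts the removal of the remaining extra methyl groups, had the largest difference between CL and NC among the 24 members tested. Its signals were 6.10, 5.63, 5.70, 5.46 and 5.61 in CL+CX, 5.89, 6.50, 5.95, 4.48 and 5.59 in CL and 6.70, 6.58, 8.02, 7.30 and 7.46 in NC livers. CL livers were spread widely, from replicate 4 far below the rest to replicate 2 just under the lowest NC liver. Msmo1 was 2.85-fold lower in CL+CX (log2 -1.51, standard error 0.32, adjusted p = 0.00993) and 2.88-fold lower in CL (-1.53, standard error 0.32, adjusted p = 0.00691) than in NC. Its CL+CX call was lost with the β-actin covariate (-1.45, adjusted p = 0.0608).

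Nsdhl and Hsd17b7 complete the same removal. Hsd17b7 measured 7.46, 7.31, 7.23, 7.47 and 7.13 in CL+CX, 6.51, 7.33, 7.32, 7.37 and 6.85 in CL and 8.08, 7.97, 8.22, 8.22 and 8.09 in NC livers. NC livers were tightly grouped and stood clear of both other groups. It was 1.73-fold lower in CL+CX (log2 -0.79, standard error 0.16, adjusted p = 0.00647) and 2.05-fold lower in CL (-1.04, standard error 0.16, adjusted p = 0.000656) than in NC. Nsdhl had differences of -0.35 in CL+CX (adjusted p = 0.346) and -0.53 in CL (adjusted p = 0.149) from NC, whose 5 livers ranged from 5.68 to 6.84.

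At the last steps, Sc5d and Dhcr7 were lower in CL than in NC and Ebp did not pass the test. The sterol isomerase gene Ebp had differences of -0.47 in CL+CX (adjusted p = 0.0788) and -0.47 in CL (adjusted p = 0.0692) from NC, and no CL+CX liver reached the NC range. The desaturase gene Sc5d was 1.45-fold lower in CL+CX (log2 -0.53, standard error 0.13, adjusted p = 0.0207) and 1.36-fold lower in CL (-0.45, standard error 0.13, adjusted p = 0.0391) than in NC. The call in CL was lost without any 1 of 10 mice (adjusted p = 0.0502 to 0.0884), and that in CL+CX without CL+CX replicate 4 (adjusted p = 0.0501). The 2 other Sc5d probe sets passed in neither comparison. Dhcr7, which makes cholesterol itself, averaged 6.20 ± 0.294 in CL+CX, 5.70 ± 0.381 in CL and 6.51 ± 0.391 in NC. It was 1.75-fold lower in CL than in NC (log2 -0.81, standard error 0.21, adjusted p = 0.0224), a call lost without CL replicate 1, NC replicate 2 or NC replicate 4 (adjusted p = 0.052 to 0.0575). Its differences of CL+CX were -0.31 from NC (adjusted p = 0.366) and 0.50 from CL (adjusted p = 0.21).

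**Figure D2:**
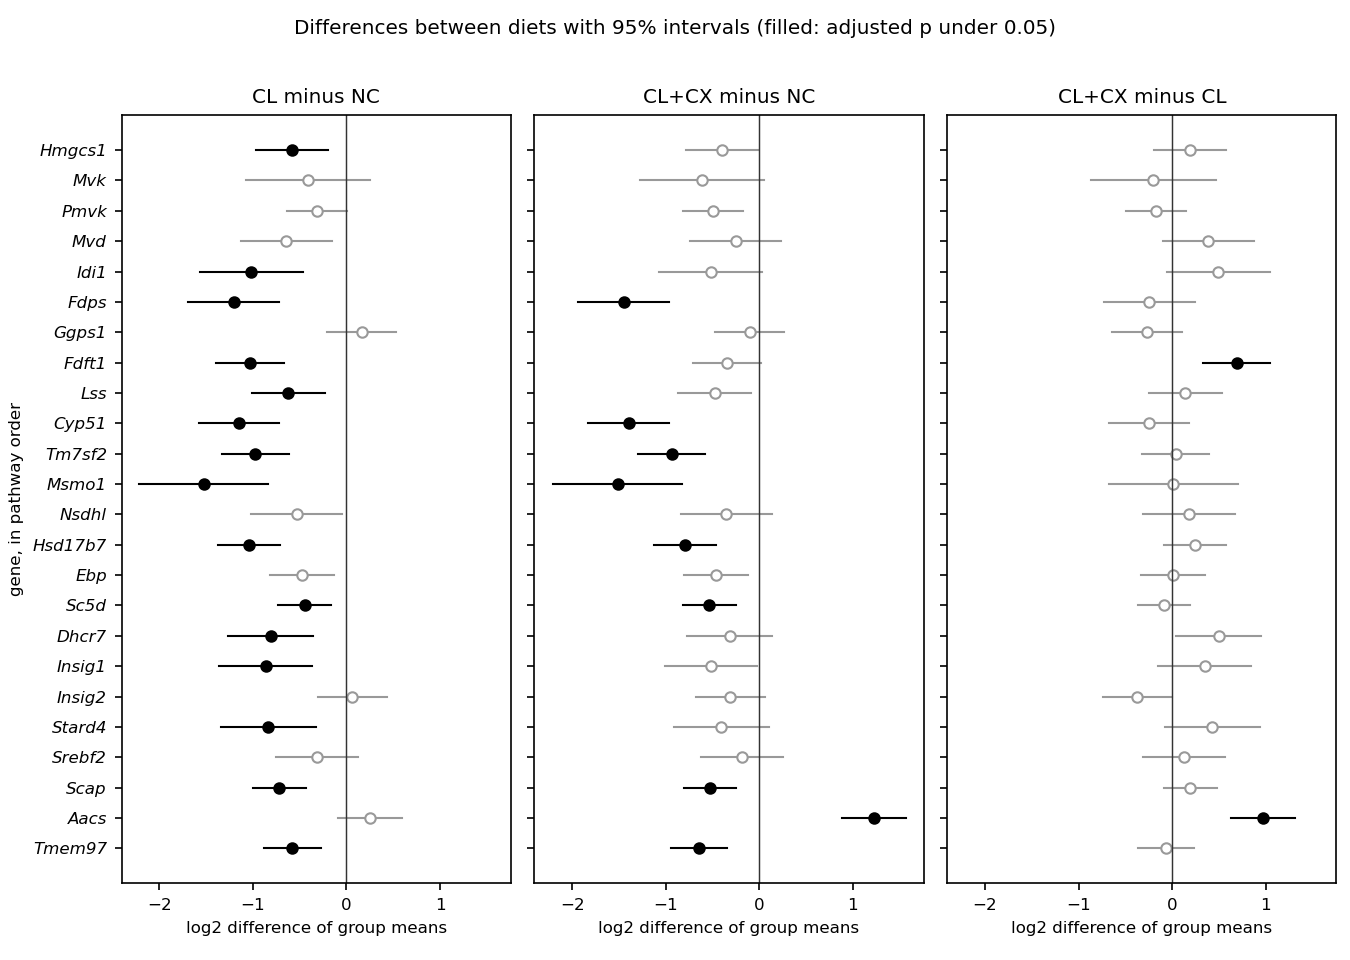
Differences between group means on the log2 scale (horizontal axes) for the 24 members (vertical axis, in pathway order), CL minus NC at left, CL+CX minus NC in the middle and CL+CX minus CL at right; bars are 95% intervals from limma with 5 livers per group, and filled points have an adjusted p under 0.05. Filled points lie left of 0 for 15 members in the first panel and for 8 in the second, with Aacs at 1.23 on the right, and only Fdft1 and Aacs are filled in the third.

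Among the regulators, Insig1 and Scap were lower in CL livers and Insig2 did not pass in any comparison. The probe sets of Srebf2 differed in their calls against NC but not in direction. Srebf2 encodes SREBP2. Its brighter probe set measured 4.92, 5.09, 5.46, 5.29 and 4.86 in CL+CX, 4.59, 5.41, 4.78, 5.15 and 5.05 in CL and 4.91, 5.11, 5.31, 5.18 and 6.05 in NC livers. The 3 groups overlapped, and only NC replicate 5 stood above the rest. Its differences from NC were -0.19 in CL+CX (95% interval -0.63 to 0.25, adjusted p = 0.598), of the other sign in 1 alternative, and -0.32 in CL (95% interval -0.76 to 0.12, adjusted p = 0.354). The dimmer probe set of Srebf2 measured 4.22, 4.26, 4.01, 4.20 and 4.58 in CL+CX, 4.46, 4.91, 4.47, 4.69 and 4.26 in CL and 5.42, 4.78, 5.60, 5.52 and 5.16 in NC livers. There all CL+CX livers lay below all NC livers, with differences of -1.04 in CL+CX (standard error 0.17, adjusted p = 0.00209) and -0.74 in CL (standard error 0.17, adjusted p = 0.0105). With its probe sets averaged, Srebf2 was called lower than in NC in CL+CX (limma adjusted p = 0.0117) and in CL (0.0177).

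Scap, the escort of SREBP2, measured 8.81, 8.55, 8.83, 8.43 and 8.49 in CL+CX, 8.58, 8.60, 8.65, 8.08 and 8.24 in CL and 9.18, 9.28, 9.21, 9.02 and 9.06 in NC livers. Neither group on the CL diet reached the NC livers. It was 1.44-fold lower in CL+CX (log2 -0.53, standard error 0.13, adjusted p = 0.0219) and 1.65-fold lower in CL (-0.72, standard error 0.13, adjusted p = 0.0028) than in NC. The CL+CX call was lost without CL+CX replicates 2, 4 or 5 or NC replicates 1 or 2 (adjusted p = 0.0508 to 0.0547).

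Insig1, a retention protein that is itself a target of SREBP2, measured 7.33, 7.32, 7.76, 7.37 and 7.52 in CL+CX, 7.88, 6.88, 6.89, 6.63 and 7.28 in CL and 7.87, 7.54, 8.69, 7.72 and 8.08 in NC livers. CL replicate 1 lay within the NC range and the other CL livers below it. Insig1 was 1.82-fold lower in CL than in NC (log2 -0.87, standard error 0.23, adjusted p = 0.025), a call lost without CL replicates 3 or 4 or NC replicates 3 or 5 (adjusted p = 0.0524 to 0.0636). In CL+CX it differed from NC by -0.52 (adjusted p = 0.171).

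Insig2, its paralog, measured 11.33, 11.33, 10.99, 11.51 and 11.07 in CL+CX, 11.19, 12.24, 11.78, 11.37 and 11.52 in CL and 11.39, 11.71, 11.44, 11.60 and 11.66 in NC livers. The groups overlapped, with CL replicate 2 the highest of all. Its differences from NC were -0.31 in CL+CX (adjusted p = 0.269) and 0.06 in CL (adjusted p = 0.852). The other Insig2 probe sets gave 0.32 (adjusted p = 0.323) and 0.49 (adjusted p = 0.0552) in CL against NC.

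Of the genes of sterol movement and neighbouring pathways, Stard4 and Tmem97 were lower in CL livers and Aacs was higher in CL+CX livers. Stard4, a soluble sterol carrier, averaged 6.26 ± 0.288 in CL+CX, 5.83 ± 0.467 in CL and 6.66 ± 0.438 in NC. It was 1.79-fold lower in CL than in NC (log2 -0.84, standard error 0.24, adjusted p = 0.0321), a call lost without CL replicates 2, 4 or 5 or NC replicates 1, 3 or 5 (adjusted p = 0.0529 to 0.0817), and its 2 other probe sets were also called lower, at -0.99 and -0.86. Tmem97, a membrane protein of the endoplasmic reticulum with a part in sterol handling, was 1.56-fold lower in CL+CX (log2 -0.64, standard error 0.14, adjusted p = 0.0114) and 1.49-fold lower in CL (-0.58, standard error 0.14, adjusted p = 0.0155) than in NC. Both calls of Tmem97 were lost with no filter and on unscaled signals, and that in CL also with the β-actin covariate (-0.53, limma adjusted p = 0.0781). Npc1l1, the sterol importer of the gut, did not pass the filter and was above the array median in 0 CL+CX, 1 CL and 1 NC liver.

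Aacs activates the ketone body acetoacetate for sterol and fatty acid synthesis in the cytosol. It measured 5.84, 5.22, 6.18, 5.98 and 5.98 in CL+CX, 4.89, 4.87, 4.86, 4.73 and 4.96 in CL and 4.35, 4.45, 4.64, 4.69 and 4.92 in NC livers. All 5 CL+CX livers lay above every other liver, with replicate 2 the lowest of them, while the CL and NC ranges overlapped. It was 2.34-fold higher in CL+CX than in NC (log2 1.23, standard error 0.16, adjusted p = 0.000605) and 1.97-fold higher in CL+CX than in CL (0.98, standard error 0.16, adjusted p = 0.00876). Between CL and NC it differed by 0.25 (adjusted p = 0.335). A dimmer Aacs probe set gave 0.98 against NC (adjusted p = 0.0354) and 0.87 against CL (adjusted p = 0.0961). The call against CL held without each of the 15 mice, and it was lost with no filter and with the β-actin covariate (1.13, adjusted p = 0.437).

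**Figure D3:**
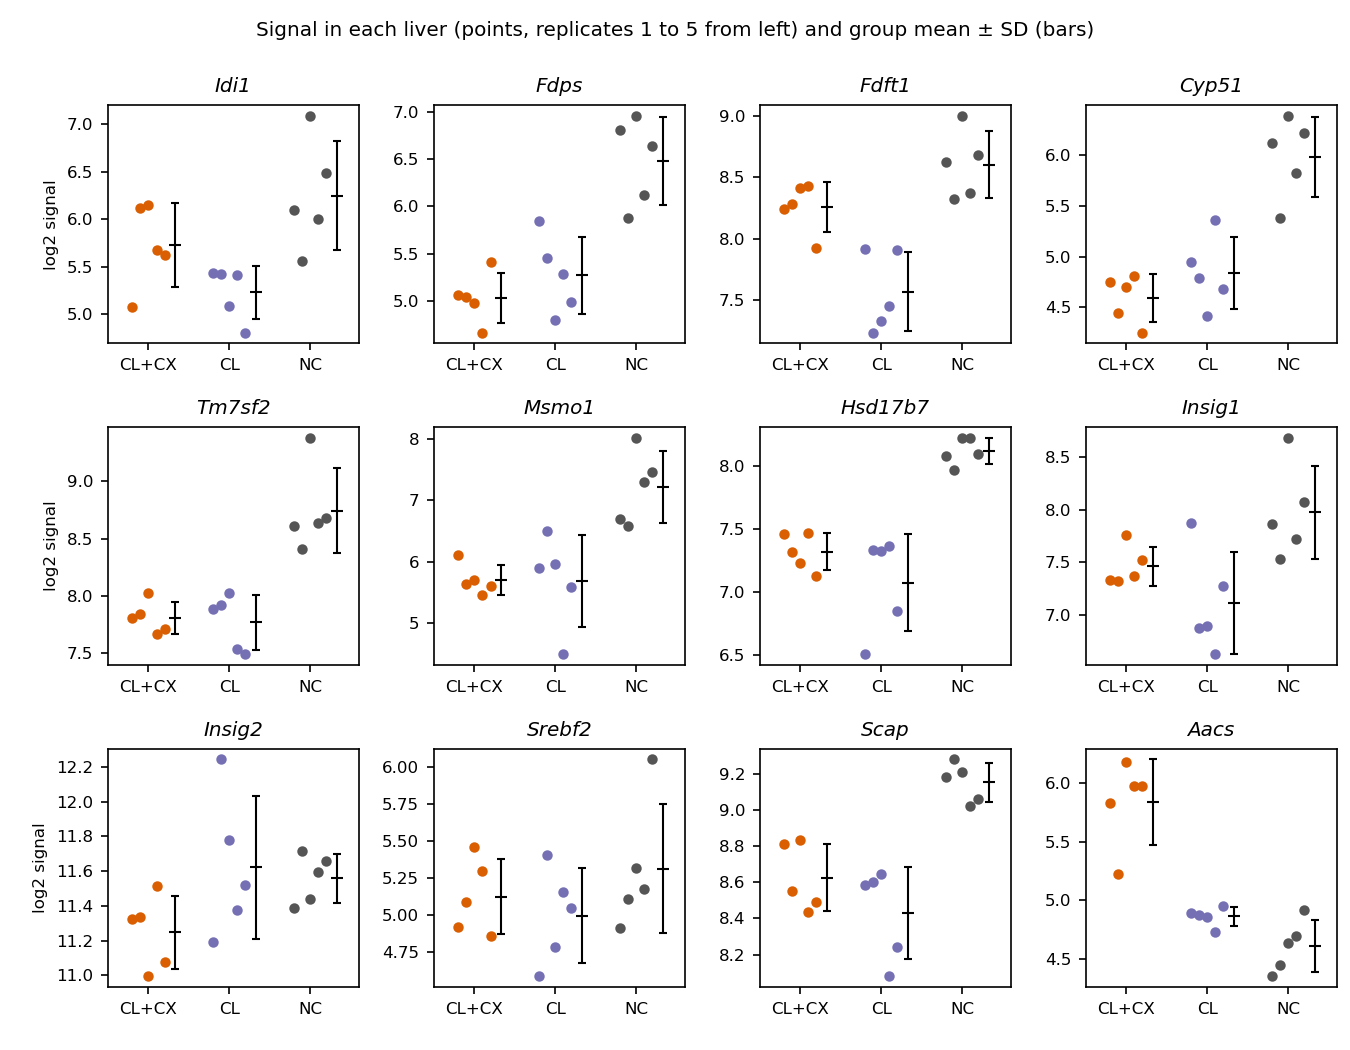
Log2 signal (vertical axes, a separate range for each gene) of 12 members in each CL+CX, CL and NC liver, as points in the order of replicates 1 to 5; bars beside them are the group mean ± SD. In Fdps, Cyp51, Tm7sf2, Msmo1, Hsd17b7 and Scap both CL+CX and CL livers lie below all NC livers, and in Aacs all CL+CX livers lie above the rest.

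Set against CL alone, most members in CL+CX livers were within the error of the comparison. Of the 24 differences, 16 were positive, with a median of 0.14 and a range of -0.37 for Insig2 to 0.98 for Aacs, while the median over all genes was 0.02. For the members lowest in CL, the intervals bound the difference that these livers allow. The difference was 0.01 for Msmo1 (95% interval -0.67 to 0.70), 0.04 for Tm7sf2 (-0.32 to 0.39), -0.24 for Fdps (-0.73 to 0.25) and -0.25 for Cyp51 (-0.68 to 0.18), and the signs of the first pair changed in 5 of the 26 other settings each. Hsd17b7 had 0.24 (-0.09 to 0.58), Insig1 0.35 (-0.15 to 0.84), Idi1 0.50 (-0.06 to 1.05) and Stard4 0.43 (-0.08 to 0.94). The intervals of Msmo1, Insig1, Idi1, Stard4, Dhcr7 (0.50, 0.04 to 0.95) and Mvd (0.39, -0.10 to 0.87) hold rises as large as that of Fdft1. Those of Mvk (-0.20, -0.87 to 0.47), Fdps and Insig2 hold falls of that size. None of these genes can therefore be called alike in both groups. Apart from Fdft1 and Aacs, the interval of Dhcr7 lay above 0 and that of Insig2 just below it (-0.74 to -0.00424), and neither passed after adjustment. The CL+CX mean lay between the CL and NC means for 15 of the 24 members, and for 11 of the 15 that were lower in CL. The exceptions among these were Fdps, Cyp51, Sc5d and Tmem97, in which the CL+CX mean was below the CL mean. Over all genes the CL+CX mean lay between in 40.2%. The 15 were chosen by their gap between CL and NC in these same data, and a wide gap leaves more room for a mean in between. The share over all genes is therefore not a like comparison for them. All 3 means enter this count, so it was described and not tested.

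Within a group, some mice stood at the edge for many members. The median of the members' differences from the NC mean was -0.32 to -0.61 in the 5 CL+CX livers, -0.56 to -0.77 in the CL livers and -0.18 to 0.15 in the NC livers, so that by this median no liver on the CL diet came up to the NC livers. Among NC livers, replicate 3 was the highest for 14 of the 24 members and replicate 2 the lowest for 12. Among CL livers, replicate 4 was the lowest for 10 and replicate 2 the highest for 8. Among CL+CX livers, replicate 3 was the highest for 9 and replicate 5 the lowest for 9. The median SD of the members was 0.235 in CL+CX, 0.322 in CL and 0.345 in NC livers, where over all genes it was 0.2, 0.294 and 0.207. Without NC replicate 3 or NC replicate 5, 10 members were lower in CL than in NC in place of 15.

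Probe sets of the same gene mostly gave the same picture. Hmgcs1 was measured by 4 tested probe sets, at -0.55 to -0.63 between CL and NC, of which 3 passed, and Hsd17b7 by 3, at -0.72 to -1.04, which all passed. A second probe set of Fdft1 gave -0.91 (adjusted p = 0.00511). The dimmer probe sets of Idi1, Lss and Cyp51 passed the filter on low signals only through NC livers, where they were high, so their values are given as a description and support no call. In CL+CX and CL against NC the differences were -1.72 and -1.93 for that of Idi1, and -1.73 and -1.10 for that of Cyp51. That of Lss differed by -0.91 in CL against NC. The 4 probe sets of Ggps1 lay between -0.02 and 0.16 in CL and none passed.

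**Figure D4:**
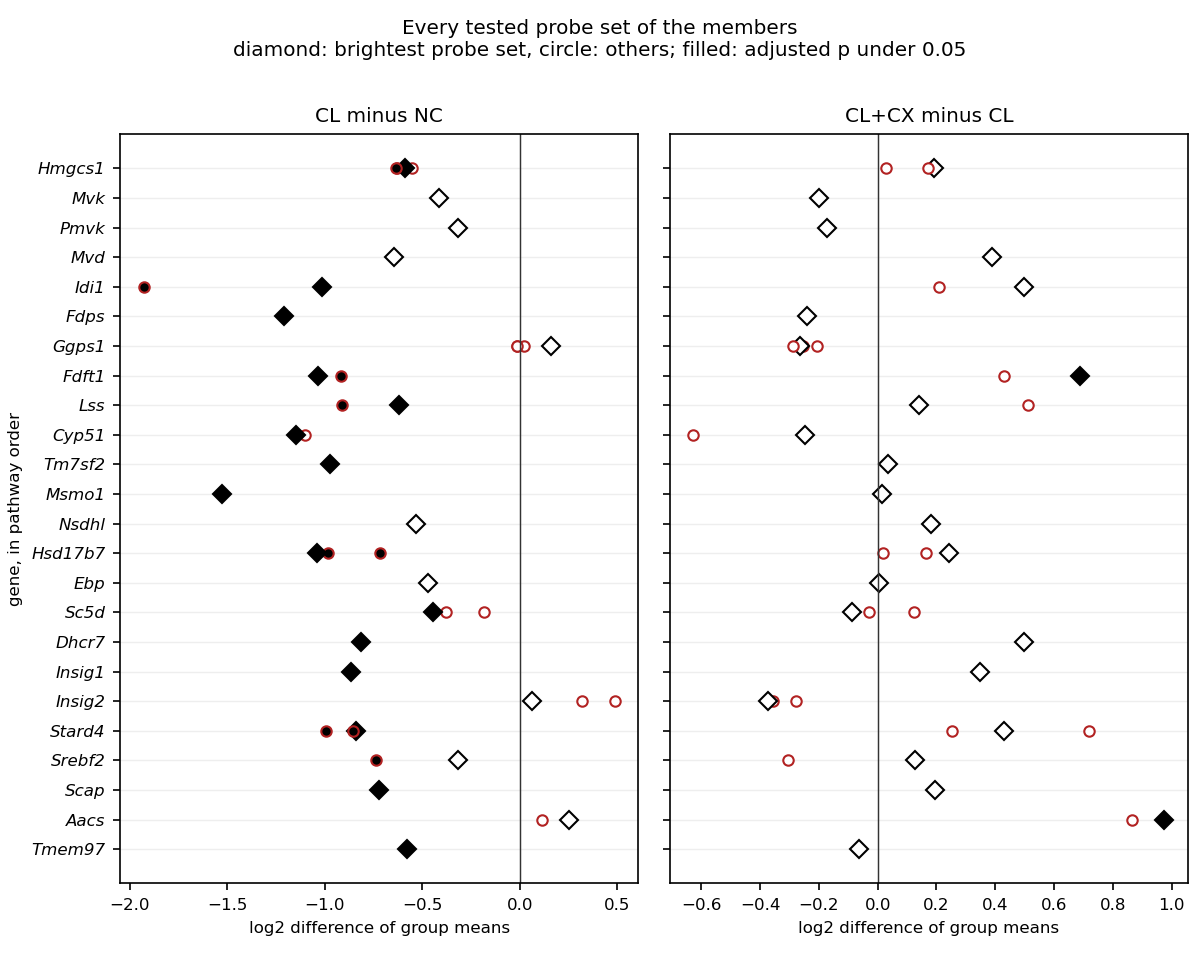
Differences between group means on the log2 scale (horizontal axes) for each of the 44 tested probe sets of the 24 members (vertical axis, in pathway order), CL minus NC at left and CL+CX minus CL at right. Diamonds are the brightest probe set of a gene, circles the others, and filled symbols have an adjusted p under 0.05, which supports no call for the circles of Idi1, Lss and Cyp51, tested only because NC livers were high; the probe sets of Srebf2 lie on different sides of the test between CL and NC, at -0.32 and -0.74.

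The genes around the pathway, 50 tested genes in 5 lists, were called about as often as all genes in CL against NC. Of the 50, 4 (8%) were lower and 5 (10%) higher in CL than in NC, beside the 6.76% and 7.2% of all genes, 3 (6%) lower and 5 (10%) higher in CL+CX than in NC, beside 4.85% and 5.11%, and 1 lower and 1 higher (2% each) in CL+CX livers against CL, beside 1.78% and 1.48%. The counts of single lists that follow stand beside the same shares and were not tested against them. Of 13 tested genes of SREBP processing and sterol sensing, none was lower and 2 were higher in CL than in NC livers, 3 were higher in CL+CX than in NC, and 1 was higher in CL+CX livers against CL. Srebf1, which encodes SREBP1, a sister factor that drives fatty acid synthesis, measured 9.21, 8.92, 9.22, 9.10 and 9.60 in CL+CX, 8.33, 8.24, 9.04, 8.29 and 8.48 in CL and 7.35, 7.35, 8.25, 7.60 and 7.65 in NC livers. All CL+CX livers lay above all NC livers, and the CL livers between them reached into both ranges. Srebf1 was higher than in NC by 1.57 in CL+CX (adjusted p = 0.000396) and by 0.83 in CL (adjusted p = 0.0115), and its difference of CL+CX from CL was 0.74 (adjusted p = 0.0508). Rnf145, a ubiquitin ligase that acts on sterol sensing, was higher by 0.66 in CL+CX (adjusted p = 0.0232) and 0.57 in CL (adjusted p = 0.0385) than in NC. Erlin1, a lipid raft protein of the endoplasmic reticulum, was higher in CL+CX by 0.72 than in NC (adjusted p = 0.00121) and by 0.42 than in CL (adjusted p = 0.0467). With 1 mouse left out, Erlin1 lost its call against CL in 12 of 15 fits (adjusted p = 0.0504 to 0.111), and Rnf145 lost its call in CL in 8 (0.0631 to 0.0889) and in CL+CX in 3 (0.0535 to 0.0552).

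In the isoprenoid branch, which makes dolichol, coenzyme Q and prenyl groups, 1 of 10 genes was lower in CL (Icmt, -0.42, adjusted p = 0.0185) and 1 in CL+CX (Rabggtb, -0.60, adjusted p = 0.0108) than in NC, and none differed between CL+CX and CL. Of 11 genes of cholesterol trafficking and lysosomal release, Npc2, a lysosomal sterol carrier, was higher in CL than in NC (0.59, adjusted p = 0.00425) and lower in CL+CX livers against CL (-0.50, adjusted p = 0.0349), the directions of the macrophage markers, whose part in it was not tested. Scarb1, the receptor for high density lipoprotein, was higher than in NC by 0.65 in CL+CX (adjusted p = 0.0078) and by 0.43 in CL (adjusted p = 0.045). Without 1 mouse, the call of Npc2 between CL+CX and CL was lost in 7 of 15 fits (adjusted p = 0.0508 to 0.0987), that of Scarb1 in CL in 11 (0.0508 to 0.114) and that of Icmt without NC replicate 1 (0.0501).

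Among 11 other known SREBP targets the directions were mixed, with 3 lower and 1 higher in CL than in NC, 2 lower and 1 higher in CL+CX than in NC, and none between CL+CX and CL. Me1, malic enzyme, was lower than in NC, at -1.20 in CL+CX (adjusted p = 0.000843) and -1.35 in CL (adjusted p = 0.000166). The retinol dehydrogenase gene Rdh11 was lower than in NC too, at -0.99 in CL+CX (adjusted p = 0.00114) and -0.53 in CL (adjusted p = 0.0279). The acetyl-CoA synthetase gene Acss2 was at -0.16 in CL+CX (adjusted p = 0.54) and lower in CL, at -0.55 (adjusted p = 0.0279). Fabp5, a fatty acid binding protein that macrophages also make, was higher in CL than in NC by 1.87 (adjusted p = 0.00213). Fasn, fatty acid synthase, was higher in CL+CX than in NC by 1.15 (adjusted p = 0.0312), with a difference of 0.41 between CL and NC (adjusted p = 0.433). Fits without 1 mouse lost the calls of Rdh11 in CL and of Acss2 in 5 of 15 cases each (adjusted p = 0.0558 to 0.0701), and that of Fasn in 6 (0.0503 to 0.073). None of 5 other sterol enzymes, among them Lbr and Cyp27a1, passed in any comparison.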

How the data were processed

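Liver RNA of 15 mice was hybridised to GeneChip Mouse Genome arrays, 1 per mouse. The authors obtained MAS5 signals for every probe set with the array maker's software, and deposited them as linear intensity values, with no detection calls. Between arrays these values were unscaled, with 75th percentiles of 41.5 to 79.0 and medians of 9.48 to 16.7. Here every array was multiplied to reach a 75th percentile of 54.1, and values then below 1 (11.3%) became 1 before log2 was taken. Of 45101 probe sets, 64 were controls, and 34945 had 1 symbol in the platform annotation, 932 several and 9160 none. A probe set was tested if, in at least 1 group, none of the 5 arrays had it under the array median. This left 20342 probe sets, and the brightest one stood for each of 10521 genes.

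A single limma 3.58.1 model (R 4.3.3) held all 3 groups, with Benjamini-Hochberg adjustment across the 20342 probe sets and a threshold of 0.05. The sample titles number the replicates and the study's methods describe RNA from each mouse, and the number of mice limits the precision. The members and lists, the genes given by mouse and the alternatives were chosen with earlier results of these data known. Values by mouse are given for the 8 members with the largest called difference between CL and NC, every member called between CL+CX and CL, and the regulators. Srebf1, Sqle and the dimmer probe set of Srebf2 were given by mouse after seeing their values. Other settings were an unfiltered table, a stricter filter (75th percentile), unscaled signals, quantile normalization, 16 added to each value instead of a floor, a test after the study's methods (a one-way test for unequal variances, followed here by Games-Howell comparisons in place of the Tukey test the methods name), a trend with a robust prior, a fit of 2 groups at a time, a block by replicate number, averaging a gene's probe sets, β-actin 3′ over 5′ as a covariate, and removal of each mouse in turn. The code was tested on simulated data. Promoter windows are from RefSeq (GRCm38.p6). Python 3.11.15 and matplotlib 3.10.9 made the figures.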

Additional observations from a re-analysis of the deposited data

Results flagged for a closer look

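Among the 24 members in the 3 groups, 72 sets of 5 livers were searched for a liver far from the others of its group, and 3 were found, where chance alone picks out about 1 in 20. Ggps1 was low in NC replicate 3, at 4.14 where the other NC livers had 5.02 to 5.29. Tm7sf2 was high in the same liver, at 9.38 where the others had 8.41 to 8.68. Lss was low in CL replicate 5, at 4.60 where the other CL livers had 5.29 to 5.53. Without NC replicate 3 Tm7sf2 was still called lower in CL than in NC, Lss was not called without CL replicate 5, and Ggps1 was called in no setting.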

How the results depend on the processing

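The count of members lower in CL than in NC, 15, became 7 with no filter, 6 on unscaled signals, 8 with the test after the study's methods and 7 with the β-actin covariate, and lay at 10 to 15 with 1 mouse left out. The count lower in CL+CX than in NC, 8, became 5 with no filter, 5 on unscaled signals and 5 with the β-actin covariate, and lay at 6 to 10 with 1 mouse left out, reaching 10 without CL replicate 2, where Pmvk and Ebp gained a call. Aacs, the 1 member higher in CL+CX than in NC, was not tested under the stricter filter, where the count was 0, and it was called with each mouse left out (1 to 1). The 2 members higher in CL+CX than in CL became 0 with no filter and 0 with the β-actin covariate, 1 each under the stricter filter, on unscaled or quantile-normalized signals, with 2 groups fitted at a time and with averaged probe sets, and 1 to 2 with 1 mouse left out. No member was higher in CL than in NC, or lower in CL+CX than in CL, in any setting. Fdps, Fdft1, Cyp51, Tm7sf2, Msmo1 and Hsd17b7 in CL, and Fdps, Cyp51, Tm7sf2, Hsd17b7 and Aacs in CL+CX, were called against NC in every setting that tested them. With the β-actin covariate, the CL calls of Hmgcs1, Idi1, Lss, Sc5d, Dhcr7, Insig1, Stard4 and Tmem97 against NC were lost. So were the CL+CX calls of Msmo1, Sc5d and Scap against NC. The cause of the lost calls was not tested.

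On unscaled signals the median of all genes moved to 0.24 in CL against NC and to 0.21 in CL+CX against NC. No called value changed its sign in any setting, and 41 of 2778 gene values under other settings, none called in either fit, did so. Same-numbered mice shared little of their deviation from the group means, with r = -0.0142 to 0.135 for CL and NC, -0.0906 to 0.0597 for CL+CX and NC, and -0.132 to 0.0452 for CL+CX and CL. These values cannot show whether the replicate numbers matched mice or arrays between groups. With the replicate number as a block, 14 members were lower in CL than in NC, 8 were lower and 1 higher in CL+CX than in NC, and 1 was higher in CL+CX livers against CL. Signals near the array median, as those of Sqle, Npc1l1 and the dimmer probe sets of Idi1 and Cyp51, give imprecise sizes.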
